A study of Mus musculus with 7 samples.

Results

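Proteasome genes were taken as every gene whose symbol is Psma, Psmb, Psmc, Psmd, Psme, Psmf or Psmg followed by a number, with or without a final a or b, and 48 of the 19938 genes with an array probeset of their own met that rule. Where a gene had several probesets, the one with the highest mean over the 7 arrays stood for it. The choice used symbols, not differences between groups. The 5 interferon-inducible members, Psmb8, Psmb9, Psmb10, Psme1 and Psme2, were set beside the other 43. RefSeq lists 49 protein-coding genes of this pattern, and the one without a probeset of its own is Psme2b. Each value is a log2 level, so a difference of 1 is a 2-fold change, and a level of one probeset cannot be set against that of another.

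Affymetrix Mouse Gene 1.0 ST arrays were hybridised with RNA of lung CD11b+ conventional dendritic cells (cDC2s), which carry inhaled antigen to lymph nodes and prime T cells there. Each array held mRNA from 1 pool of Cd11c+ Mhc2+ Cd11b+ Ly6c- Cd64- cells sorted from 10 female mice on a C57Bl/6 background. There were 3 arrays of Irf3-deficient mice given 100 µg of house dust mite extract (Irf3-deficient HDM), 2 of wild type mice given the same extract (WT HDM) and 2 of wild type mice given saline (WT PBS), all taken 12 hours after treatment. Irf3 is activated by phosphorylation when cells sense foreign nucleic acids or bacterial products, and then drives type I interferon genes. House dust mite extract is a common allergen preparation that also carries microbial material. The labels give neither the Irf3 allele nor any cell type restriction of it. Irf3-deficient cells without the extract were not analysed here, so the genotype's effect on resting cells and on the response cannot be told apart. Nothing in the labels says that the pools were collected on separate days, so p-values measure the spread between these pools only. In pooled cells, fewer cells of a type and less RNA per cell cannot be told apart.

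The proteasome is the barrel-shaped protease that degrades ubiquitin-tagged proteins and supplies most peptides for MHC class I. Its core has outer rings of alpha subunits, which gate the entrance, and inner rings of beta subunits, of which Psmb5, Psmb6 and Psmb7 carry the constitutive active sites. Interferons induce Psmb8, Psmb9 and Psmb10, which replace those 3 in newly built cores and form the immunoproteasome, and Psme1 and Psme2, whose products together form the PA28 cap. The regulatory particle, built from a base with ATPases and a lid, recognises and unfolds tagged proteins. Dedicated chaperones assemble the core and the base and are not part of the finished particle.

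The stretches before the start sites of the 5 genes named above as interferon-inducible are shown. They come from RefSeq for the GRCm38.p6 assembly and read 5′ to 3′ towards the gene, ending at the base before its start. The stretch of Psmb9 is chr17:34187331-34187555 on the minus strand, the 225 bases that separate its start from the start of Tap1, which is transcribed the other way. Each of the others covers 250 bases: Psmb8 at chr17:34197945-34198194 (plus strand), Psmb10 at chr8:105938393-105938642 (minus), Psme1 at chr14:55578244-55578493 (plus) and Psme2 at chr14:55591102-55591351 (minus). Capitals mark a match to a searched motif.
Psmb9: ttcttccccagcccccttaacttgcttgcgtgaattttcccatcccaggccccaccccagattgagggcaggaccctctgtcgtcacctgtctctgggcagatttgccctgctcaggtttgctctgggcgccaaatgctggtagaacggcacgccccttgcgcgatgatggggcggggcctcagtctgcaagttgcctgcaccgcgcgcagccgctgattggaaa
Psmb8: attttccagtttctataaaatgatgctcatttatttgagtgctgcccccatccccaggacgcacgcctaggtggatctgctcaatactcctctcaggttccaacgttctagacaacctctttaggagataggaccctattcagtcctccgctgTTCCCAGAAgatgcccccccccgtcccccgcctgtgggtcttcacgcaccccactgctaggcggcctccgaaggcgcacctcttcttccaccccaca
Psmb10: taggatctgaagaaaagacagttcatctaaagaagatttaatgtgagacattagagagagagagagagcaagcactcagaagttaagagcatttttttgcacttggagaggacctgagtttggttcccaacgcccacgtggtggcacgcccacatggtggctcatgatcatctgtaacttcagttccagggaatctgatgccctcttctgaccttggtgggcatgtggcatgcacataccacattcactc
Psme1: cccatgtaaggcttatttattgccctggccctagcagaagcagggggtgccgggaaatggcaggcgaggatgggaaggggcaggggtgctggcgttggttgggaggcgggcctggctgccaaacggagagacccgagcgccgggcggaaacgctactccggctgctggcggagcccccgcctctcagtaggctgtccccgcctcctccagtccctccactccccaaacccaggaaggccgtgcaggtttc
Psme2: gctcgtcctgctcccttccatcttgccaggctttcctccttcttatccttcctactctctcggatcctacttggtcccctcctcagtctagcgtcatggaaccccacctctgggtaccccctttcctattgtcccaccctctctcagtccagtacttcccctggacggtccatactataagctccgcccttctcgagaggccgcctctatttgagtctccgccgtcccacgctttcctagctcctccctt

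Of the 48 members, 40 matched an entry of that promoter table, and 4 motifs were searched on both strands of the 250 bases before each start, so for Psmb9 also in the first bases of Tap1. They were the interferon-stimulated response element (ISRE: GAAA, any 2 bases, GAAA), the gamma-activated sequence of STAT factors (GAS: TTC, any 3 bases, GAA), the NF-kB site (GGGA, any base, TTTCC) and the antioxidant response element (ARE: TGAC, any 3 bases, GC), which is also the site of the proteasome gene activator Nfe2l1. Among the inducible members the single match was the GAS in Psmb8, from 97 to 89 bases before the start. No ISRE, NF-kB or ARE match lay in the windows of the 5. Among the other 35 members with an entry, ISRE matches lay before Psmb3, Psmd4 and Psmd9, a GAS match before Psmg1, and ARE matches before Psmb5, Psmb6, Psmc6, Psmd9 and Psmd12. No matches to different motifs overlapped. Of 27025 genes in the table, 3.46% held the ISRE in the window of at least 1 start, 8.13% the GAS, 0.414% the NF-kB site and 11.5% the ARE. A match is a string of letters in the window, and its absence says nothing about binding elsewhere.

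Irf3 itself followed the labels. Its log2 level was 8.26, 8.13 and 8.30 in Irf3-deficient HDM arrays, against 9.59 and 9.57 in WT HDM and 9.48 and 9.56 in WT PBS, with a difference of -1.35 between Irf3-deficient HDM and WT HDM (adjusted p = 2.11e-06). Whether the probes lie in the deleted part of the gene is not given in the sources used here. Across genes, the correlation was 0.995 to 0.997 for arrays that share a group and 0.973 to 0.990 otherwise. All 10 cDC2 markers lay between the 77th and the 99.9th percentile of brightness, with a median at 97.1. The median percentile was 92.7 for monocyte and macrophage markers, 78.8 for epithelial and endothelial markers, 71.6 for cDC1 markers, 44 for B cell and plasmacytoid DC markers, 21.4 for neutrophil markers and 17.2 for T and NK cell markers, so markers of other lung cells were also bright.

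After HDM, wild type cDC2s raised all 5 inducible members, and Irf3-deficient cDC2s had lower levels of all 5 than wild type cDC2s given the same extract. In Irf3-deficient HDM arrays 4 of the 5 lay at levels that did not pass against WT PBS, and Psme2 remained higher. The other 43 members did not all move alike. Part of them, led by the chaperone gene Psmg4 and the alpha ring genes Psma5, Psma4 and Psma7, had the same order as the inducible members. Psma2, Psmb3, Psmd1 and Psme3 were higher in Irf3-deficient HDM than in both wild type groups. Only 5 of the 43 were higher in Irf3-deficient HDM than in WT HDM, close to the 10.7% share of all genes. The genes of the constitutive catalytic subunits Psmb5 and Psmb6 passed in no comparison. That of the remaining one, Psmb7, rose by 0.54 in WT HDM and was lower in Irf3-deficient HDM than in WT HDM, by a difference of -0.91.

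In WT HDM against WT PBS, 5 of 5 inducible members rose and 20 of 43 others rose, where 8.35% of all genes rose. One other member, Psmg2, fell, where 9.23% of all genes fell, and 22 others did not pass. The median log2 difference was 1.25 over the inducible members, 0.35 over the others and 0.03 over all genes. The values of the groups did not overlap and were higher in WT HDM for 32 of the 43 others, against 28.5% of all genes, and lower for 5, against 24.1% of all genes. Over all 48 members 26 passed in either direction, against 17.6% of all genes. At 1.5-fold or more 5 of the 43 others rose and 0 fell, against 4.72% and 4.62% of all genes. A fit without 1 wild type array leaves 1 array in that group, which can cost calls for any gene. The share of all genes called in such fits was not worked out. The count of 20 rested on few arrays, since 9 others rose without WT PBS replicate 2 and 11 without WT PBS replicate 1 or without WT HDM replicate 2. All 5 inducible members rose in each of those fits.

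Set against WT HDM, Irf3-deficient HDM had lower levels of 5 of 5 inducible members and 13 of 43 others, where 9.0% of all genes were lower. Among the others 5 were higher, where 10.7% of all genes were higher, so that count lay close to the background. A further 25 did not pass. Over all 48 members 23 passed in either direction, against 19.7% of all genes. Values did not overlap and were lower in Irf3-deficient HDM for 22 of the 43 others, against 20.5% of all genes, and higher for 10, against 23.2% of all genes. At 1.5-fold or more 3 of the 43 others were higher and 7 lower, against 4.37% and 4.47% of all genes. The median log2 difference was -1.32 over the inducible members, -0.20 over the others and 0.00 over all genes. Without any 1 array the inducible count stayed at 5 lower, and the count of other members that were lower ranged from 9 to 13.

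Set against WT PBS, Irf3-deficient HDM had higher levels of 1 of 5 inducible members and 11 of 43 others, where 5.89% of all genes were higher. Of the others 2 were lower, where 4.91% of all genes were lower, and 30 did not pass. Over all 48 members 14 passed in either direction, against 10.8% of all genes. Values did not overlap for 20 of the 43 others that were higher and 9 that were lower, against 22.0% and 17.0% of all genes. Among the 5 inducible members 1 was higher and 3 were lower without overlap. At 1.5-fold or more 6 of the 43 others were higher and 0 lower, against 2.49% and 2.12% of all genes. The medians were -0.19 over the inducible members, 0.15 over the others and 0.04 over all genes. Fits that leave 1 array in WT PBS can cost calls for any gene, and the share of all genes called in them was not worked out. The count of 11 fell to 4 without WT PBS replicate 1 and to 7 without WT PBS replicate 2. The 3 comparisons share arrays, so a high or low array of one group moves 2 of them together.

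**Figure D1:**
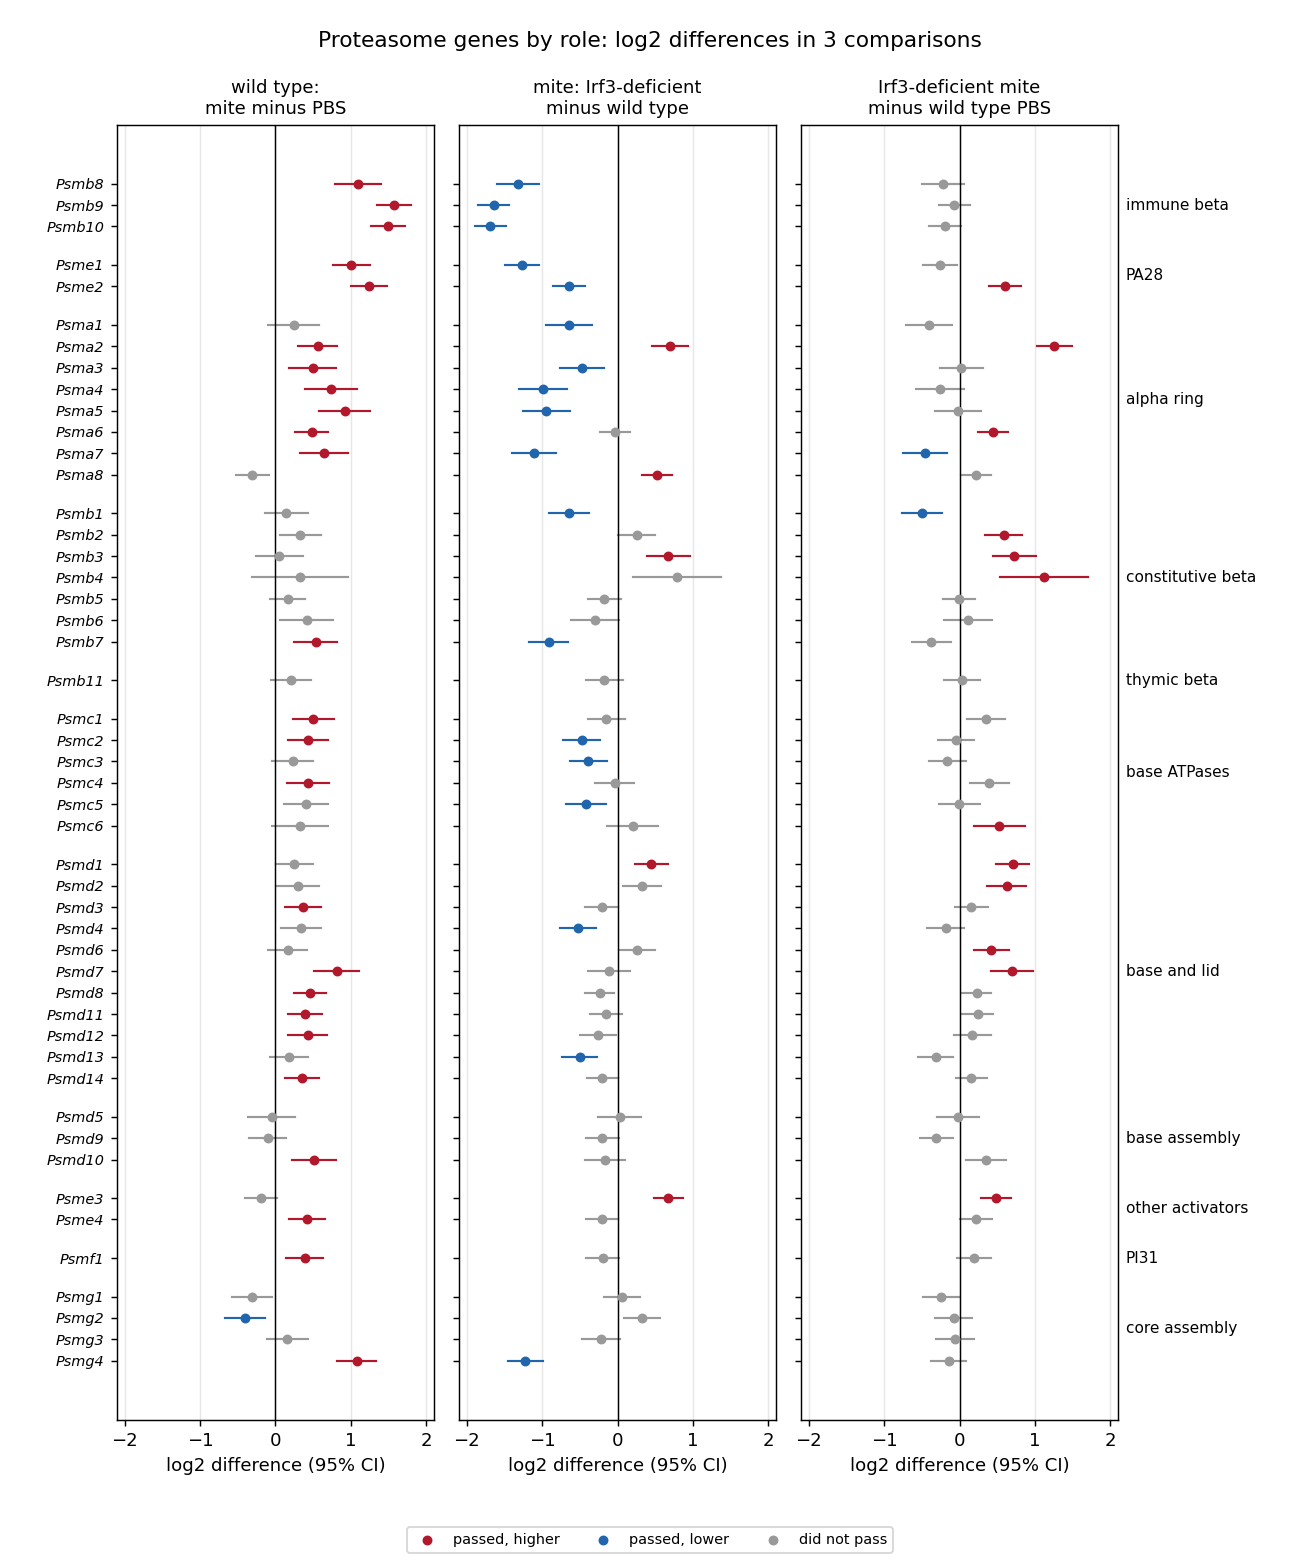
Log2 difference (x axis) of each of the 48 proteasome genes (rows, grouped by role) in WT HDM minus WT PBS (left), Irf3-deficient HDM minus WT HDM (middle) and Irf3-deficient HDM minus WT PBS (right). Points are limma estimates with 95% confidence intervals, red for higher, blue for lower and grey for not passing at an adjusted p of 0.05. The 5 immune beta and PA28 genes lie right of 0 on the left and left of 0 in the middle, and 4 of them are grey on the right.

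Averaged over members, the sets separated by array. Relative to its WT PBS mean, the mean deviation of the 5 inducible members was -0.01, -0.03 and -0.04 in Irf3-deficient HDM arrays, 1.26 and 1.30 in WT HDM arrays, and 0.02 and -0.02 in WT PBS arrays. That of the 43 others was 0.11, 0.14 and 0.22 in Irf3-deficient HDM arrays, 0.33 and 0.31 in WT HDM arrays, and lay within 0.003 of 0 in WT PBS arrays. The mean of the inducible set was thus high in both WT HDM arrays and near 0 in the Irf3-deficient arrays, where its highest member, Psme2, lay 0.53 to 0.66 above WT PBS. That mean near 0 averages Psme2 with 4 members whose group differences from WT PBS were negative, from -0.26 to -0.07. The others averaged above WT PBS in all 5 HDM arrays. No test was made of the difference between the 2 sets.

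**Figure D2:**
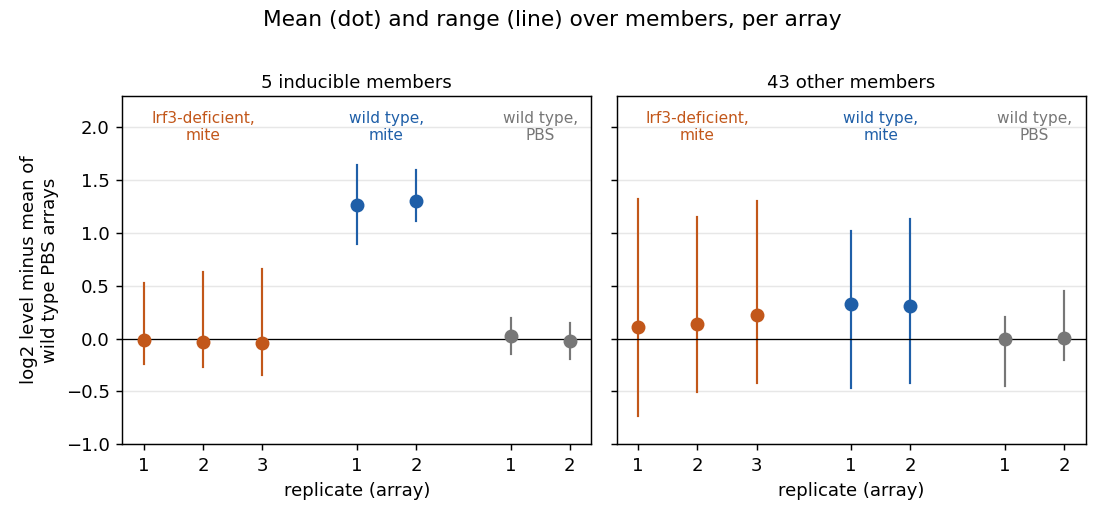
Log2 level minus the gene's mean over the WT PBS arrays (y axis), for each array (x axis, replicate number within Irf3-deficient HDM, WT HDM and WT PBS), for the 5 inducible members (left) and the 43 others (right). Dots are means over members and lines run from the lowest to the highest member. The WT HDM dots of the inducible members, at 1.26 and 1.30, stand above all other dots.

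Markers of other cell types also differed between the groups. For scale, 10.7% of all genes were higher and 9.0% lower in Irf3-deficient HDM than in WT HDM. In WT HDM against WT PBS these shares were 8.35% and 9.23%, and in Irf3-deficient HDM against WT PBS 5.89% and 4.91%. Of 11 measured monocyte and macrophage markers, 9 were higher and 2 lower in Irf3-deficient HDM than in WT HDM, and 1 was higher and 10 lower in WT HDM than in WT PBS. Their mean log2 level ranged from 11.06 to 11.17 in Irf3-deficient HDM arrays, from 10.28 to 10.70 in WT HDM arrays and from 11.52 to 11.83 in WT PBS arrays. That mean was lowest in WT HDM, where the inducible members were highest. Against WT PBS, 0 of the 11 markers were higher and 4 lower in Irf3-deficient HDM. The marker that ran against the list in both comparisons with WT HDM was Fcgr1, the gene of CD64, by which the sort excluded cells. It differed by -1.67 in Irf3-deficient HDM against WT HDM and by 1.79 in WT HDM against WT PBS. Fcgr1 is itself known as an interferon-inducible gene. Apoe was the other marker lower in Irf3-deficient HDM than in WT HDM. It was lowest there, at 9.87, 10.24 and 10.29, against 10.91 and 11.36 in WT HDM and 12.88 and 13.45 in WT PBS. Between Irf3-deficient HDM and WT HDM, the numbers higher and lower were 5 and 1 of 10 for cDC2 markers, 1 and 2 of 6 for cDC1 markers, 1 and 2 of 7 for epithelial and endothelial markers, 1 and 3 of 7 for lymphocyte markers of T and NK cells, 1 and 1 of 5 for markers of B cells or plasmacytoid DCs, and 0 and 0 of 4 for neutrophil markers. In WT HDM against WT PBS those numbers were, in the same order of cell types, 1 and 4, 1 and 2, 1 and 5, 3 and 0, 1 and 0, and 1 and 0. No marker was listed at 0, since array values have a background. The part of these markers in the proteasome results was not tested.

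Psmb9 encodes the immune subunit that takes the place of Psmb6. Its log2 level was 10.48, 10.50 and 10.50 in Irf3-deficient HDM arrays, against 12.21 and 12.06 in WT HDM and 10.53 and 10.59 in WT PBS. Both WT HDM arrays stood far above the other 5, and the Irf3-deficient arrays lay just below those of WT PBS. WT HDM was 2.98-fold higher than WT PBS (95% CI 2.55 to 3.48, adjusted p = 4.22e-07), the largest rise among the 48 members. Irf3-deficient HDM was 3.12-fold lower than WT HDM (2.71 to 3.60, adjusted p = 2.01e-07) and differed from WT PBS by -0.07 ± 0.10 (SE, adjusted p = 0.747).

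Psmb10 encodes the immune subunit that takes the place of Psmb7. Its level was 10.82, 10.83 and 10.89 in Irf3-deficient HDM arrays, against 12.43 and 12.63 in WT HDM and 11.00 and 11.08 in WT PBS. It was 2.82-fold higher in WT HDM than in WT PBS (95% CI 2.40 to 3.30, adjusted p = 7.58e-07) and 3.21-fold lower in Irf3-deficient HDM than in WT HDM (2.78 to 3.72, adjusted p = 1.83e-07), the largest fall among the 48. The Irf3-deficient arrays lay below both WT PBS arrays, but the difference of -0.19 did not pass (adjusted p = 0.268).

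Psmb8 encodes the immune subunit that takes the place of Psmb5, and its level was 10.97, 10.76 and 10.69 in Irf3-deficient HDM arrays, against 12.06 and 12.19 in WT HDM and 11.22 and 10.83 in WT PBS. The WT PBS arrays were 0.39 apart, more than for Psmb9 or Psmb10. WT HDM was 2.14-fold higher than WT PBS (95% CI 1.73 to 2.65, adjusted p = 0.000135), and Irf3-deficient HDM was 2.50-fold lower than WT HDM (2.06 to 3.03, adjusted p = 1.53e-05). The Irf3-deficient values overlapped those of WT PBS, with a difference of -0.22 (adjusted p = 0.35).

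The PA28 genes had different calls in Irf3-deficient cells. Psme1, the gene of the alpha subunit of this ATP-independent cap, stood at 11.46, 11.47 and 11.40 in Irf3-deficient HDM arrays, against 12.60 and 12.81 in WT HDM and 11.82 and 11.57 in WT PBS. It was 2.01-fold higher in WT HDM than in WT PBS (95% CI 1.69 to 2.38, adjusted p = 4.43e-05), 2.40-fold lower in Irf3-deficient HDM than in WT HDM (2.06 to 2.80, adjusted p = 3.13e-06), and differed by -0.26 between Irf3-deficient HDM and WT PBS (adjusted p = 0.147). Psme2, the gene of the beta subunit, stood at 12.90, 13.00 and 13.03 in Irf3-deficient HDM arrays, against 13.71 and 13.52 in WT HDM and 12.22 and 12.52 in WT PBS. Its Irf3-deficient values lay between the 2 wild type groups and overlapped neither. Psme2 was 2.37-fold higher in WT HDM than in WT PBS (2.01 to 2.79, adjusted p = 5.42e-06), 1.56-fold lower in Irf3-deficient HDM than in WT HDM (1.34 to 1.81, adjusted p = 0.000576), and 1.52-fold higher in Irf3-deficient HDM than in WT PBS (1.31 to 1.77, adjusted p = 0.00216). A further probeset, shared by Psme2b and Psme2 and left out of all counts, differed by 1.43, -0.92 and 0.51 in those comparisons, so the share of each of these near copies in the signal is uncertain. Whether the 2 PA28 genes differ from each other was not tested.

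**Figure D3:**
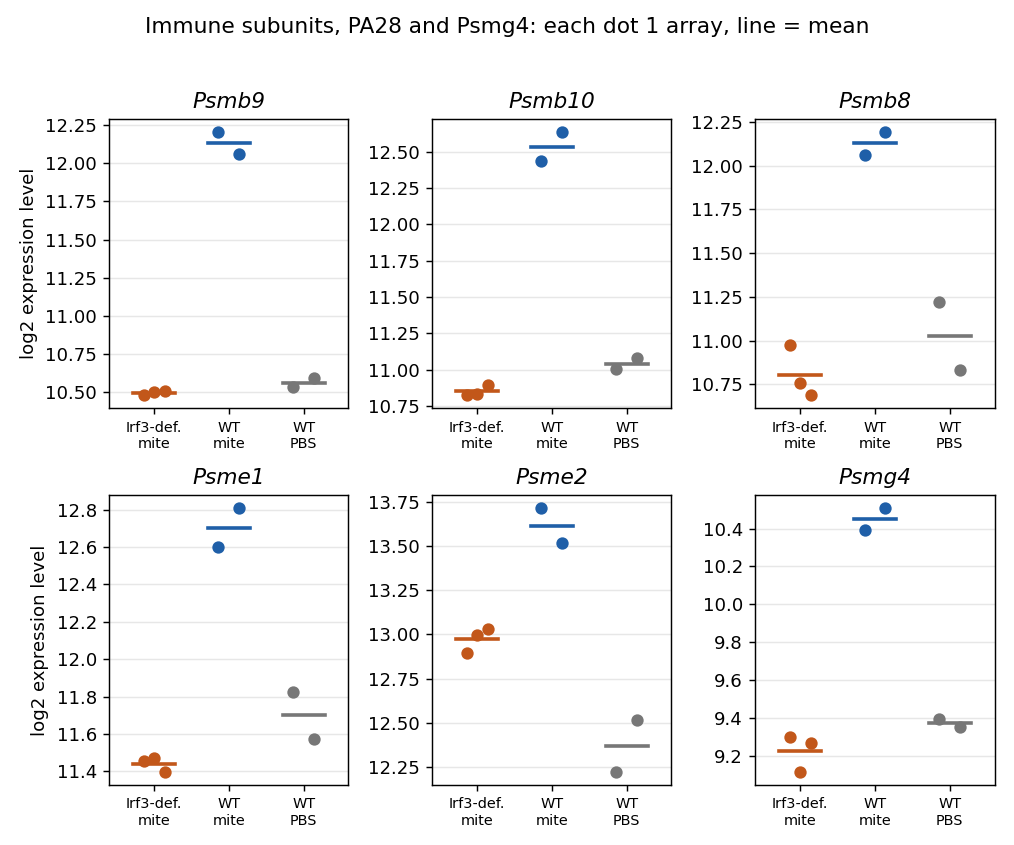
Log2 expression level (y axis, a scale of its own in each panel) of the 5 inducible members and the core chaperone gene Psmg4 in Irf3-deficient HDM, WT HDM and WT PBS cDC2s. Each dot is 1 array and each line a group mean, and the WT HDM arrays are the highest in all 6 panels. Psme2 is the panel in which the Irf3-deficient arrays lie between the wild type groups.

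The constitutive catalytic subunits had smaller differences than their immune counterparts in WT HDM against WT PBS and in Irf3-deficient HDM against WT HDM. Psmb5, which carries the chymotrypsin-like site, was at 12.15, 12.04 and 12.33 in Irf3-deficient HDM arrays, against 12.40 and 12.30 in WT HDM and 12.14 and 12.24 in WT PBS. It differed by 0.16 in WT HDM against WT PBS (95% CI -0.07 to 0.40, adjusted p = 0.378) and by -0.17 in Irf3-deficient HDM against WT HDM (-0.39 to 0.04, adjusted p = 0.289). Psmb6, which carries the caspase-like site, was at 10.57, 10.76 and 11.00 in Irf3-deficient HDM arrays, against 11.25 and 10.90 in WT HDM and 10.51 and 10.81 in WT PBS. Its differences of 0.41 in WT HDM against WT PBS (0.06 to 0.76, adjusted p = 0.107) and -0.30 in Irf3-deficient HDM against WT HDM (-0.62 to 0.02, adjusted p = 0.211) did not pass, and these intervals leave room for changes of over 1.5-fold. Psmb7, which carries the trypsin-like site, passed in both of these comparisons. It was at 10.23, 10.46 and 10.48 in Irf3-deficient HDM arrays, against 11.19 and 11.41 in WT HDM and 10.87 and 10.66 in WT PBS, and no groups overlapped. Psmb7 was 1.88-fold lower in Irf3-deficient HDM than in WT HDM (95% CI 1.57 to 2.25, adjusted p = 0.000168) and 1.45-fold higher in WT HDM than in WT PBS (1.19 to 1.77, adjusted p = 0.0124), the last a call lost without WT PBS replicate 2 (adjusted p = 0.109) or WT HDM replicate 2 (adjusted p = 0.107).

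Set against its constitutive counterpart in the same array, each immune subunit gained in WT HDM. The change of Psmb9 from WT PBS minus that of Psmb6 was 0.00, -0.16 and -0.40 in Irf3-deficient HDM arrays, against 1.06 and 1.26 in WT HDM arrays. For Psmb10 minus Psmb7 it was 0.32, 0.10 and 0.14 in Irf3-deficient HDM arrays, against 0.97 and 0.94 in WT HDM arrays. For Psmb8 minus Psmb5 it was -0.02, -0.13 and -0.49 in Irf3-deficient HDM arrays, against 0.82 and 1.05 in WT HDM arrays. In WT PBS arrays these values lay within 0.25 of 0. The groups with HDM did not overlap for any of the 3 pairs. These are differences of log2 changes, with no test.

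Of the alpha ring genes, whose products form the gated outer rings, 6 of 8 rose in WT HDM, and 5 were lower and 2 higher in Irf3-deficient HDM than in WT HDM. Among all genes 8.35% rose in the first comparison, and 9.0% were lower and 10.7% higher in the second. Psma5 was at 9.36, 9.84 and 9.83 in Irf3-deficient HDM arrays, against 10.61 and 10.63 in WT HDM and 9.77 and 9.62 in WT PBS, 1.89-fold higher in WT HDM than in WT PBS (adjusted p = 0.00118) and 1.92-fold lower in Irf3-deficient HDM than in WT HDM (adjusted p = 0.000474). Psma4 was at 10.50, 10.73 and 10.83 in Irf3-deficient HDM arrays, against 11.45 and 11.91 in WT HDM and 11.07 and 10.81 in WT PBS. It was 1.67-fold higher in WT HDM than in WT PBS (adjusted p = 0.00622) and 1.99-fold lower in Irf3-deficient HDM than in WT HDM (adjusted p = 0.000403). Both followed the order of the immune subunits. Psma7 was also below WT PBS in Irf3-deficient cells: at 9.56, 9.57 and 9.62 in Irf3-deficient HDM arrays, against 10.54 and 10.85 in WT HDM and 10.25 and 9.84 in WT PBS, it was 2.16-fold lower than in WT HDM (adjusted p = 9.42e-05) and also 1.38-fold lower than in WT PBS (adjusted p = 0.0466). The last call was lost without WT PBS replicate 1 and without any 1 of the 3 Irf3-deficient arrays. The rises of Psma4 and Psma7 (1.57-fold, adjusted p = 0.00828) in WT HDM were lost without WT PBS replicate 2 or WT HDM replicate 2.

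The remaining alpha ring genes did not share 1 pattern. Psma3 rose by 0.50 in WT HDM and was lower by a difference of -0.47 in Irf3-deficient HDM than in WT HDM, and both calls were lost without WT HDM replicate 2. The rise of Psma3 was also lost without either WT PBS array, and its call between the genotypes without Irf3-deficient HDM replicate 1. Psma1 was lower in Irf3-deficient HDM than in WT HDM, by a difference of -0.64 (adjusted p = 0.00565), with 0.24 in WT HDM against WT PBS (adjusted p = 0.354). Psma6 rose by 0.48 in WT HDM and was also higher by 0.44 in Irf3-deficient HDM than in WT PBS, with a difference of -0.04 between Irf3-deficient HDM and WT HDM (95% CI -0.23 to 0.16). Its call against WT PBS was lost without either WT PBS array. Psma2 passed in all 3 comparisons, with its highest levels in Irf3-deficient HDM. It was at 11.36, 11.19 and 11.34 in Irf3-deficient HDM arrays, against 10.68 and 10.53 in WT HDM and 9.94 and 10.14 in WT PBS, so that no groups overlapped. Irf3-deficient HDM was 1.62-fold higher than WT HDM (95% CI 1.38 to 1.91, adjusted p = 0.000595) and 2.39-fold higher than WT PBS (2.03 to 2.82, adjusted p = 2.75e-05), and WT HDM was 1.48-fold higher than WT PBS (1.23 to 1.77, adjusted p = 0.00515), the last a call lost without WT PBS replicate 1 (adjusted p = 0.0595). Psma8, known as the testis form of Psma7, was dim, at the 33rd percentile of brightness, where fold changes are understated. It was at 7.31, 7.37 and 7.24 in Irf3-deficient HDM arrays, against 6.80 and 6.77 in WT HDM and 7.08 and 7.10 in WT PBS, 1.44-fold higher in Irf3-deficient HDM than in WT HDM (adjusted p = 0.00141).

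Among the beta subunits without active sites, Psmb3 and Psmb1 moved in opposite directions in Irf3-deficient cells. Psmb3 was at 13.76, 13.47 and 13.60 in Irf3-deficient HDM arrays, against 13.18 and 12.69 in WT HDM and 12.77 and 13.00 in WT PBS. It was 1.59-fold higher in Irf3-deficient HDM than in WT HDM (adjusted p = 0.00279) and 1.65-fold higher than in WT PBS (adjusted p = 0.00397), the last a call lost without WT PBS replicate 1 (adjusted p = 0.0836), while the wild type groups overlapped. Psmb1 was at 9.61, 9.75 and 9.90 in Irf3-deficient HDM arrays, against 10.54 and 10.25 in WT HDM and 10.24 and 10.26 in WT PBS. It was 1.56-fold lower in Irf3-deficient HDM than in WT HDM (adjusted p = 0.00219) and 1.41-fold lower than in WT PBS (adjusted p = 0.0197), a call lost without replicate 1 or 2 of WT PBS or replicate 2 of Irf3-deficient HDM. Psmb2 was higher in Irf3-deficient HDM than in WT PBS by 0.58 (adjusted p = 0.00599), a call lost without WT PBS replicate 1.

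Psmb4 could not be placed. It was at 12.58, 12.50 and 12.61 in Irf3-deficient HDM arrays, against 12.30 and 11.24 in WT HDM and 11.00 and 11.90 in WT PBS, so the arrays of each wild type group lay about 1 log2 unit apart. Its difference of 0.79 between Irf3-deficient HDM and WT HDM did not pass (adjusted p = 0.0576), and that of 1.12 against WT PBS passed (adjusted p = 0.0189) but not without WT PBS replicate 1 (adjusted p = 0.287) or without Irf3-deficient HDM replicate 3 (adjusted p = 0.0539). Psmb11, the subunit of thymic epithelium, stood at the 30.9th percentile of brightness, and differed by 0.20, -0.17 and 0.03 in the 3 comparisons without passing.

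**Figure D4:**
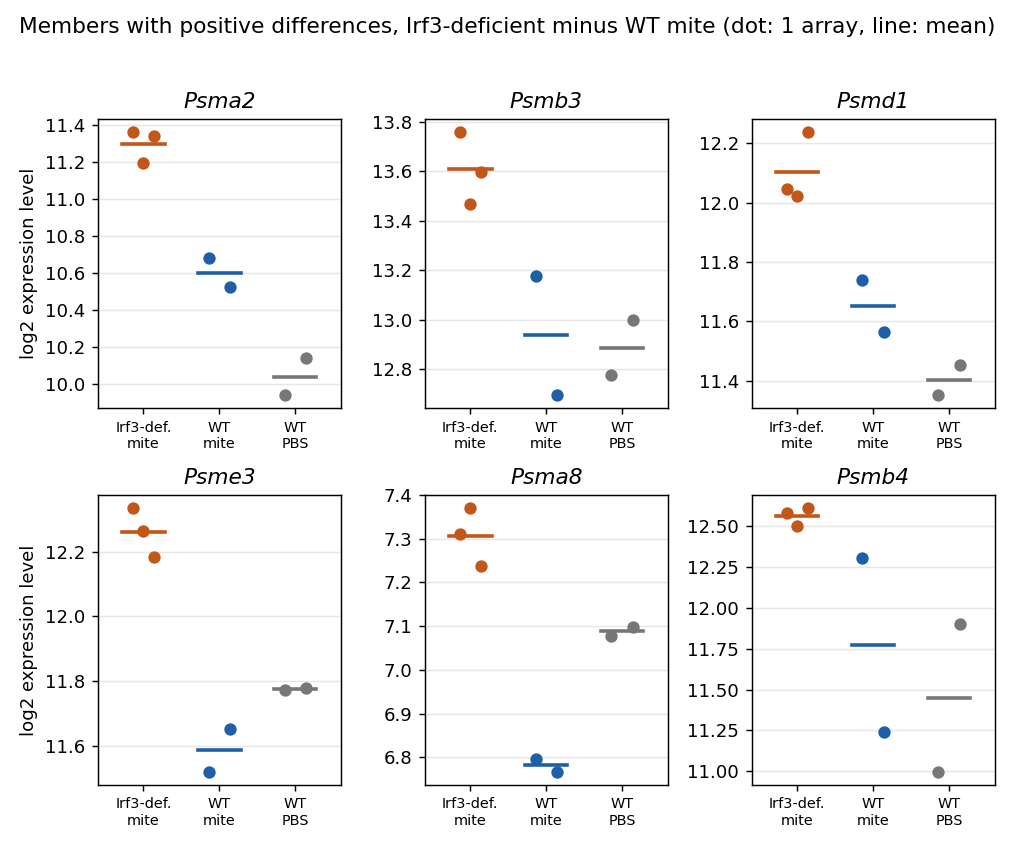
Log2 expression level (y axis, a scale of its own in each panel) of 6 members with positive differences in Irf3-deficient HDM against WT HDM cDC2s, with WT PBS at the right. Each dot is 1 array and each line a group mean. Psma2, Psmb3, Psmd1, Psme3 and Psma8 passed against WT HDM, whereas Psmb4, whose wild type arrays are widely spread, did not. That is 5 of the 43 others, close to the 10.7% of all genes that were higher there.

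The base ATPases, whose ring unfolds substrates and threads them into the core, had small differences. Among all genes, 8.35% rose in WT HDM against WT PBS and 9.0% were lower in Irf3-deficient HDM than in WT HDM. In WT HDM against WT PBS 3 of 6 rose, Psmc1 by 0.50, Psmc2 by 0.43 and Psmc4 by 0.43, with adjusted p-values from 0.0143 to 0.0368. Against WT HDM 3 of 6 were lower in Irf3-deficient HDM, Psmc2 by a difference of -0.48, Psmc5 by -0.41 and Psmc3 by -0.39, with adjusted p-values from 0.00818 to 0.0309. Each of these 6 calls was lost without at least 1 of the wild type arrays. A second probeset of Psmc1 differed by 0.55, 0.00 and 0.54 in WT HDM against WT PBS, Irf3-deficient HDM against WT HDM and Irf3-deficient HDM against WT PBS, where the one used differed by 0.50, -0.15 and 0.35. Psmc6 was higher in Irf3-deficient HDM than in WT PBS by 0.53 (adjusted p = 0.0497), at the threshold, a call lost without either WT PBS array or any 1 Irf3-deficient array.

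The other base and lid genes rose in 6 of 11 cases in WT HDM, where 8.35% of all genes rose. The largest rise was that of Psmd7, the partner of the lid's deubiquitinase, at 10.69, 10.39 and 10.33 in Irf3-deficient HDM arrays, against 10.53 and 10.64 in WT HDM and 9.88 and 9.66 in WT PBS. It was 1.76-fold higher in WT HDM than in WT PBS (95% CI 1.43 to 2.17, adjusted p = 0.00125) and 1.62-fold higher in Irf3-deficient HDM than in WT PBS (1.34 to 1.96, adjusted p = 0.00395), with a difference of -0.11 between Irf3-deficient HDM and WT HDM (95% CI -0.39 to 0.16). The call of Irf3-deficient HDM against WT PBS was lost without WT PBS replicate 2 (adjusted p = 0.0503). All 5 HDM arrays lay above both WT PBS arrays for Psmd7. Psmd3, Psmd8, Psmd11, Psmd12 and Psmd14, the last of which encodes the deubiquitinase, rose by 0.35 to 0.46 in WT HDM, with adjusted p-values from 0.00512 to 0.0407, and did not pass in the other comparisons. Of these, Psmd8 alone kept its rise without any 1 array.

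Between the genotypes 2 of the 11 were lower and 1 was higher, where 9.0% of all genes were lower and 10.7% higher. Psmd4, a ubiquitin receptor, was at 9.46, 9.56 and 9.72 in Irf3-deficient HDM arrays, against 10.14 and 10.08 in WT HDM and 9.80 and 9.73 in WT PBS, 1.44-fold lower in Irf3-deficient HDM than in WT HDM (adjusted p = 0.00447). Psmd13, a lid subunit, was lower by a difference of -0.50 (adjusted p = 0.00515). Psmd1, a large scaffold of the base, was at 12.05, 12.02 and 12.24 in Irf3-deficient HDM arrays, against 11.74 and 11.56 in WT HDM and 11.35 and 11.45 in WT PBS. It was 1.37-fold higher in Irf3-deficient HDM than in WT HDM (adjusted p = 0.00683), a call lost without WT HDM replicate 2 (adjusted p = 0.0769), and 1.63-fold higher than in WT PBS (adjusted p = 0.000945). Psmd2, the other large scaffold, and Psmd6, a lid subunit, were higher in Irf3-deficient HDM than in WT PBS, by 0.63 and 0.42. The call of Psmd2 was lost without WT PBS replicate 1, and that of Psmd6 without WT PBS replicate 2 or without replicate 2 or 3 of Irf3-deficient HDM.

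Psmg4, which with Psmg3 forms a chaperone pair for the alpha ring, had the largest change outside the inducible set in WT HDM. It was at 9.30, 9.12 and 9.27 in Irf3-deficient HDM arrays, against 10.39 and 10.51 in WT HDM and 9.39 and 9.35 in WT PBS. Both WT HDM arrays lay far above the other 5. Psmg4 was 2.11-fold higher in WT HDM than in WT PBS (95% CI 1.77 to 2.51, adjusted p = 3.35e-05), 2.33-fold lower in Irf3-deficient HDM than in WT HDM (1.99 to 2.74, adjusted p = 5.88e-06), and differed by -0.15 between Irf3-deficient HDM and WT PBS (adjusted p = 0.477). Its partner Psmg3, dim at the 36.7th percentile, differed by 0.16 and -0.22 in the first 2 of these without passing. Psmg2, of the other chaperone pair of the core, fell by 0.41 in WT HDM (adjusted p = 0.0379), a call lost in 6 of the 7 fits without 1 array, and Psmg1 passed in no comparison. Of the base chaperones, Psmd10 rose by 0.51 in WT HDM (adjusted p = 0.0182), a call lost without either WT PBS array or WT HDM replicate 1, while Psmd5 and Psmd9 passed in no comparison.

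Psme3, the gene of the nuclear activator related to PA28, was higher in Irf3-deficient HDM than in WT HDM, where both PA28 genes were lower. Against WT PBS it was higher in Irf3-deficient HDM, as was Psme2. Psme3 was at 12.33, 12.26 and 12.18 in Irf3-deficient HDM arrays, against 11.52 and 11.65 in WT HDM and 11.77 and 11.78 in WT PBS. For Psme3 no groups overlapped. It was 1.60-fold higher in Irf3-deficient HDM than in WT HDM (95% CI 1.39 to 1.83, adjusted p = 0.000189) and 1.40-fold higher than in WT PBS (1.22 to 1.60, adjusted p = 0.00437), the last a call lost without WT PBS replicate 1 (adjusted p = 0.0534), while the difference of -0.19 between WT HDM and WT PBS did not pass (adjusted p = 0.24). Psme4, a large single-chain activator, rose by 0.42 in WT HDM (adjusted p = 0.0164), and Psmf1, the gene of the inhibitor PI31, rose by 0.39 (adjusted p = 0.0299). Neither passed in the other comparisons, and each rise was lost without WT HDM replicate 1. That of Psme4 was also lost without WT PBS replicate 2. That of Psmf1 was also lost without WT HDM replicate 2, WT PBS replicate 1 or Irf3-deficient HDM replicate 2.

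Sorted by their calls, 4 inducible members (Psmb8, Psmb9, Psmb10 and Psme1) and 6 others (Psma3, Psma4, Psma5, Psmb7, Psmc2 and Psmg4) were higher in WT HDM than in WT PBS, lower in Irf3-deficient HDM than in WT HDM and not called between Irf3-deficient HDM and WT PBS. A missed threshold in the last comparison does not show equal levels. A further 10 members, all outside the inducible set, rose in WT HDM and passed in neither comparison with Irf3-deficient cells. Psma2, Psmb3, Psmd1 and Psme3 were higher in Irf3-deficient HDM than in both wild type groups. Psmb5, Psmb6, Psmb11, Psmd5, Psmd9, Psmg1 and Psmg3 passed nowhere. The share of all genes with each combination of calls was not worked out. The comparisons also share arrays, so these counts are a description of the members only. The counts of kept calls that follow leave out the 1.5-fold minimum and likewise have no share of all genes beside them. Under every other scaling, filter, model and left-out array tried, and with the replicate block, the call was kept by 10 of 26 members called in WT HDM against WT PBS (the 5 inducible ones, Psma5, Psma6, Psmd7, Psmd8 and Psmg4), by 18 of 23 in Irf3-deficient HDM against WT HDM, and by 3 of 14 (Psma2, Psmd1 and Psme2) in Irf3-deficient HDM against WT PBS.

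Genes that work with the proteasome but lie outside the symbol rule were followed as a list, with 19 of 27 measured. In WT HDM against WT PBS 4 rose and 1 fell, where 8.35% of all genes rose and 9.23% fell. Nfe2l1, the transcription factor that induces proteasome genes when proteasome activity is short, was at 11.53, 11.46 and 11.53 in Irf3-deficient HDM arrays, against 11.80 and 11.83 in WT HDM and 11.07 and 11.09 in WT PBS. It was higher by 0.73 ± 0.10 (SE, adjusted p = 0.000159) in WT HDM than in WT PBS, lower by a difference of -0.31 in Irf3-deficient HDM than in WT HDM (adjusted p = 0.0242) and higher by 0.42 in Irf3-deficient HDM than in WT PBS (adjusted p = 0.00854). Pomp, the maturation factor of the core, rose by 0.55 in WT HDM, and Nploc4, a cofactor of the Vcp segregase, rose by 0.43, whereas Midn, which carries proteins to the proteasome without ubiquitin, fell by 0.39. Of the 19, 4 were higher and 3 lower in Irf3-deficient HDM than in WT HDM, where 10.7% of all genes were higher and 9.0% lower. Sem1, the smallest lid subunit, was lower by a difference of -1.06 (adjusted p = 0.00015) and Txnl1, a thioredoxin-like protein of the regulatory particle, by -0.55, while Nfe2l2, the antioxidant relative of Nfe2l1, was higher by 0.58, Usp14, a deubiquitinase of the regulatory particle, by 0.49 and Midn by 0.37. Against WT PBS, 4 were higher in Irf3-deficient HDM, with the smallest p-values for Nploc4 at 0.84 and Usp14 at 0.52, and Sem1 was lower at -0.68. Among all genes 5.89% were higher and 4.91% lower there.

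Genes that trim, transport and load the peptides made by the proteasome were measured in 15 of 18 cases. Among all genes, 8.35% rose and 9.23% fell in WT HDM against WT PBS. In Irf3-deficient HDM 10.7% of all genes were higher and 9.0% lower than in WT HDM. Against WT PBS those shares were 5.89% and 4.91%. In WT HDM against WT PBS 7 rose and 0 fell, with the smallest p-values for the peptide editor gene Tapbpl at 1.93, the class I transactivator gene Nlrc5 at 1.86 and the peptide transporter gene Tap1 at 1.47. Relative to WT HDM, 7 were lower in Irf3-deficient HDM, with the smallest p-values for Tapbpl at -1.72, Tap1 at -1.43 and Tap2 at -1.30, and the chaperone genes Canx and Calr and the peptidase gene Lap3 were higher by 0.40 to 0.45. Relative to WT PBS, 3 were higher in Irf3-deficient HDM, Lap3 at 1.02, Nlrc5 at 0.52 and Canx at 0.32, and 0 were lower. The median over the 15 was -0.13 in Irf3-deficient HDM against WT HDM and 0.28 in WT HDM against WT PBS.

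Of 12 genes of interferon signalling 11 were measured. The shares of all genes that rose and fell in WT HDM against WT PBS were 8.35% and 9.23%. Those higher and lower in Irf3-deficient HDM were 10.7% and 9.0% against WT HDM, and 5.89% and 4.91% against WT PBS. In WT HDM 6 rose, with the smallest p-values for the transcription factor genes Irf7 at 4.04, Stat2 at 2.32 and Irf8 at 1.61, and the receptor gene Ifngr1 fell by 0.82. Of the 11, 7 were lower in Irf3-deficient HDM than in WT HDM, with the smallest p-values for Irf7 at -2.99, Stat2 at -1.92 and Irf3 itself. Irf3 is counted among the 7 although it is the gene that the genotype disrupts, so its fall follows from the design. Ifngr1 was higher by 0.73 and Ifnar1 by 0.34. Between Irf3-deficient HDM and WT PBS, Irf7 remained higher at 1.05, Irf8 at 0.42 and Stat2 at 0.40. Psme2 was the inducible proteasome gene that passed there in the same direction.

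Of the 5 inducible genes, 4 lie in 2 clusters in the RefSeq annotation of GRCm38.p6. Psmb9, Tap1, Psmb8 and Tap2 follow each other on chromosome 17, and Tap2 rose by 1.46 in WT HDM, close to Tap1. Beyond Tap2, H2-Ob, which encodes a chain of a class II-like regulator of peptide loading, fell by 0.54 in WT HDM (adjusted p = 0.0146). Psme1, Emc9, Psme2, Rnf31 and Irf9 follow each other on chromosome 14. Rnf31, which encodes a linear ubiquitin ligase, and Irf9, a partner of Stat2, rose by 1.17 and 1.12 in WT HDM and were lower by differences of -0.84 and -0.82 in Irf3-deficient HDM than in WT HDM. Emc9, which lies between the PA28 genes, differed by -0.21 in Irf3-deficient HDM against WT HDM and by 0.08 in WT HDM against WT PBS without passing. Before Psme1, Dcaf11 was lower by a difference of -0.48 in Irf3-deficient HDM than in WT HDM (adjusted p = 0.00492). It did not pass in WT HDM against WT PBS, and Fitm1 passed in neither. Among all genes 8.35% rose and 9.23% fell in WT HDM, and 9.0% were lower in Irf3-deficient HDM than in WT HDM. Beside Psmb10 on chromosome 8, the protease gene Ctrl rose by 0.67 in WT HDM (adjusted p = 0.00103) and was lower by a difference of -0.58 in Irf3-deficient HDM (adjusted p = 0.0013), whereas Pskh1, Lcat and Slc12a4 passed in neither comparison.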

How the data were processed

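mRNA of pooled lung cDC2s was measured on 7 arrays in 3 groups. The deposited values are log2 expression levels per probeset, and R 3.2.1, RMA and oligo are named in the submitters' processing notes, with no role given, so background correction, summarisation and normalisation are not known beyond those names. The values were used as deposited, with no further normalisation. Array medians lay between 7.60 and 7.69, and the number of arrays limits the precision.

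Of 35556 probesets, 21789 had 1 gene symbol in the platform annotation, 1621 had several and were left out, and 12146 were not listed. Symbols were updated through Entrez identifiers. The probeset with the highest mean stood for each of 19938 genes, of which 999 had several. limma 3.58.1 in R 4.3.3 was fitted to all 7 arrays with 1 mean per group and an intensity trend, which gave 4 residual and 8.34 prior degrees of freedom. Tests were two-sided, with Benjamini-Hochberg adjustment over all 19938 genes in each comparison and a threshold of 0.05, and adjusted p-values in the text come from this fit unless a left-out array is named. Counts of values that do not overlap compare the arrays of both groups.

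All members are named, and from each other list up to 3 genes per direction and comparison with the smallest p among those called. Genomic neighbours and the 4 promoter motifs were also looked at. Members and lists were chosen with earlier results of these data known, so no list was given a test of its own. The fit was tested on simulated data first. Alternatives were median centring, another quantile normalisation, the mean of a gene's probesets, a filter at the 25th percentile, no trend, only the groups compared, leaving out each array, a replicate block and a 1.5-fold minimum. The 1.5-fold minimum was applied to counts only, not to the calls of single members. The labels do not say that replicate numbers pair arrays, and the numbers were not taken to pair them. Same-numbered arrays of different groups deviated with correlations from -0.233 to 0.178. With 2 arrays in each wild type group, swapping the numbers only turns the sign (-0.233 to 0.233 for WT HDM with WT PBS). These correlations therefore cannot decide whether arrays were handled in pairs.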

Additional observations from a re-analysis of the deposited data

How the results depend on the processing

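The calls of the inducible members (5 higher in WT HDM against WT PBS, 5 lower in Irf3-deficient HDM against WT HDM, 1 higher in Irf3-deficient HDM against WT PBS) were the same in number under every alternative run. For single members, 1867 alternative values kept direction and side of the threshold, 116 lost the threshold, 40 gained it and 41 changed sign, and all that changed sign were uncalled. With 2 or 3 arrays a group, causes of these changes were not tested. In WT HDM against WT PBS, others that rose numbered 5 at 1.5-fold or more, 15 with the replicate block and 9 to 21 without 1 array. Others that fell numbered 3 after quantile normalisation, 2 after the percentile filter, 0 with only the groups compared, with the replicate block or at 1.5-fold, and 0 to 1 without 1 array. The inducible median was 1.14 after quantile normalisation and 1.16 to 1.39 without 1 array. Between Irf3-deficient HDM and WT HDM, others at 1.5-fold or more numbered 3 higher and 7 lower, and 4 to 7 higher and 9 to 13 lower without 1 array. The inducible median was -1.26 with the replicate block and -1.41 to -1.26 without 1 array. Between Irf3-deficient HDM and WT PBS, others at 1.5-fold or more numbered 6 higher and 0 lower, and 4 to 13 higher and 0 to 2 lower without 1 array. The inducible median was -0.27 after quantile normalisation and -0.19 to -0.10 without 1 array, and that of the others 0.074 after quantile normalisation, 0.10 with the replicate block and 0.10 to 0.18 without 1 array.

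Signs turned after quantile normalisation for Psmb3 (-0.074) in WT HDM against WT PBS, Psma6 (0.01) in Irf3-deficient HDM against WT HDM, and Psma3 (-0.067), Psmb11 (-0.018) and Psmc5 (0.024) in Irf3-deficient HDM against WT PBS. In the last comparison Psma5 (0.022) turned with the mean of its probesets, and Psma3 (-0.035), Psmb11 (-0.025) and Psmd5 (0.08) with the replicate block. Without 1 array, ranges in WT HDM against WT PBS were -0.19 to 0.29 for Psmb3, -0.21 to 0.85 for Psmb4 and -0.14 to 0.045 for Psmd5. Between Irf3-deficient HDM and WT HDM they were -0.11 to 0.04 for Psma6, -0.30 to 0.006 for Psmc1, -0.18 to 0.10 for Psmc4, -0.061 to 0.47 for Psmc6, -0.34 to 0.004 for Psmd10, -0.084 to 0.13 for Psmd5 and -0.049 to 0.17 for Psmg1. Between Irf3-deficient HDM and WT PBS they were -0.08 to 0.12 for Psma3, -0.10 to 0.14 for Psma5, -0.10 to 0.16 for Psmb11, -0.09 to 0.055 for Psmb5, -0.032 to 0.26 for Psmb6, -0.089 to 0.03 for Psmc2, -0.10 to 0.089 for Psmc5 and -0.13 to 0.08 for Psmd5. The labels do not say that replicate numbers pair the arrays, and replicate 3 of Irf3-deficient HDM has no partner in the block. A crossed replicate block for WT HDM against WT PBS, chosen after seeing the data, gave 5 inducible and 27 other members that rose and 1 that fell. Dim members (Psma8, Psmb11, Psmg3) lie near the background, where differences are understated.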

Other observations

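The signed gap between WT HDM replicates 1 and 2 and the gap between WT PBS replicates 2 and 1 correlated at r = 0.818 across the 48 members and at r = 0.233 across all 19938 genes. Across the 43 members outside the inducible set r was 0.836, and without Psmb4, whose gaps of 1.06 in WT HDM and 0.90 in WT PBS were the widest, it was 0.743 across 42. The replicates were subtracted in opposite order in WT HDM and WT PBS, and with the same order each r has the opposite sign. Most members are brighter than most genes, so the r across all genes is not a background of like brightness. Genes are not independent replicates, each gap rests on 2 arrays, and these values are a description with no test.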
